A study of Mus musculus with 14 samples.

Results

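The expression of 10 genes of the Wnt pathway was examined in mouse embryonic stem (ES) cell lines that differ in their sex chromosomes. The genes are beta-catenin (*Ctnnb1*), the 4 TCF/LEF factors *Tcf7*, *Lef1*, *Tcf7l1* and *Tcf7l2*, the targets *Axin2*, *Sp5*, *Nkd1* and *Cdx1*, and *Tcf3*, a gene whose name has been used for *Tcf7l1*. They were chosen by name from 23298 genes in the table, and all 10 passed the filter on low values in every comparison. Because they were proposed with the differences between XX and XY lines in these data already known, those differences are given as a description with no p-value.

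RNA was sequenced from 14 ES cell lines in 5 groups, all F1 hybrids of C57BL/6J and CAST/EiJ mice, grown in serum and LIF on feeder fibroblasts that were depleted before RNA extraction. BC lines had a C57BL/6J mother and CB lines a CAST/EiJ mother. XX and XY cells were each represented by 3 lines per cross, and XO cells by 2 BC lines of spontaneous origin. Each line came from a single blastocyst, so that a line is 1 embryo grown in culture. Numbers of CB XX lines follow the order of their columns, which could not be matched to single sample titles.

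Wnt ligands bind Frizzled and LRP receptors and thereby stop a complex built on Axin and Apc from marking beta-catenin for destruction. Stabilised beta-catenin enters the nucleus and binds TCF/LEF factors at DNA, which turns their target genes on. In mouse ES cells Wnt signalling favours self-renewal, and *Tcf7l1* acts there mainly as a repressor of pluripotency genes that beta-catenin relieves. *Tcf3* in the present annotation is another gene, which encodes the E proteins E12 and E47, basic helix-loop-helix factors that bind E-box sequences and are not part of the TCF/LEF family.

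*Sp5*, a zinc finger factor, and *Axin2*, a scaffold of the destruction complex that acts as a feedback inhibitor, are direct Wnt targets in many tissues, and the 250 bases before their starts are shown because both genes differed between the groups. The sequences are from the RefSeq promoter table (GRCm38.p6) and were placed by exact match in NCBIM37 (mm9), the build used in the study, on the plus strand at chr2:70312730-70312979 for *Sp5* and chr11:108781413-108781662 for *Axin2*. Capitals mark matches to TCF/LEF core motifs, searched on both strands. The motif CTTTGAT was searched first. A second form was CTTTGTT, another form was CTTTGAA, and the last form searched was CTTTGTA.
Sp5: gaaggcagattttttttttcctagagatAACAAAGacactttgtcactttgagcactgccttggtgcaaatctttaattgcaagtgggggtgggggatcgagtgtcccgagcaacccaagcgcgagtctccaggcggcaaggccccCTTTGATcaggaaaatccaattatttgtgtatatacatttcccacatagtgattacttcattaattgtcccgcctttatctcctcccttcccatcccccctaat
Axin2: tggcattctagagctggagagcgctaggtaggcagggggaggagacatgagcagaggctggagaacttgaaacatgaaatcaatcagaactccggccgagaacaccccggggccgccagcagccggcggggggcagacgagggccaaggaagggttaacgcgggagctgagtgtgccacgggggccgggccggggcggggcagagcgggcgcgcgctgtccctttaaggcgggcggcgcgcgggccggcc
The *Sp5* window held CTTTGAT, starting 104 bases before the start, and CTTTGTT on the other strand, 222 bases before it. The *Axin2* window held none of these letters, nor did the windows of *Tcf7*, *Nkd1*, *Tcf7l1*, *Ctnnb1* and *Tcf3*. Of the windows at several starts, 1 of *Lef1* held CTTTGTA and 1 of *Tcf7l2* held CTTTGTT, and no *Cdx1* window was used here. Of 32851 promoter windows of this length, 14.8% held at least 1 of the motifs and 3.21% held CTTTGAT, so that the matches are a description of sequence only. The windows also differed in base composition, with 46.0% G or C for *Sp5* and 69.2% for *Axin2*.

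Some facts on the libraries bear on every value given here. Values in the table are read signals on a scale common to all lines, and the sum per line was between 28150946 and 30657803. In each line 97.5% to 98.6% of the values lay within 0.1 of a whole multiple of 1 step, between 0.407 and 2.46, which gives 11904429 to 69646316 steps per line. The lines differed in how GC content bore on expression. The GC tilt of a line, which is the median deviation of the tenth of genes richest in GC minus that of the tenth poorest in GC on the log2 scale, ran from -1.34 in BC XX 3 to 0.95 in CB XY 1. It was -0.52 and -0.25 in the other BC XX lines, -0.39 to -0.13 in the BC XY lines, -0.03 and 0.23 in the BC XO lines, -0.33 to 0.51 in the CB XX lines and 0.59 to 0.95 in the CB XY lines. Several of the 10 genes are rich in GC, with *Cdx1*, *Sp5* and *Tcf3* at percentiles 97.9, 97.9 and 97.3 of expressed genes, *Axin2* at 89.4 and *Tcf7l1* at 85.5. *Uty*, which lies on the Y chromosome, had values of 945 to 2088 in the BC XY lines and 1149 in CB XY 1 but 19.6 in CB XY 2 and 45.4 in CB XY 3, which is within the range of the XX lines (12.8 to 195). The 25 fibroblast markers had a mean level of 10.48 to 11.7 on the log2 scale in the BC XX lines and 7.76 to 9.64 in the other 11 lines, and the 10 ES cell markers were at 12.4 to 13.4 in all 14 lines.

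Per kilobase of exon, *Ctnnb1* had the highest level of the 10 genes, with a mean of 5679 over 14 lines, followed by *Tcf3* at 536 and *Tcf7* at 296. *Tcf7l1* (159) and *Axin2* (156) had nearly the same mean per kilobase, and *Lef1* (94.7) and *Sp5* (78.2) came next. *Tcf7l2* (33.7), *Cdx1* (31.6) and *Nkd1* (21.5) were the lowest. *Ctnnb1* lay above *Tcf3* with no overlap between lines. Every other pair of neighbours in this order overlapped, although *Tcf7* lay above *Tcf7l1* within each of the 14 lines, whereas *Tcf7l1* lay above *Axin2* in only 7 lines. The values below are the scaled values of the table, which are compared between lines for 1 gene at a time.

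**Figure D1:**
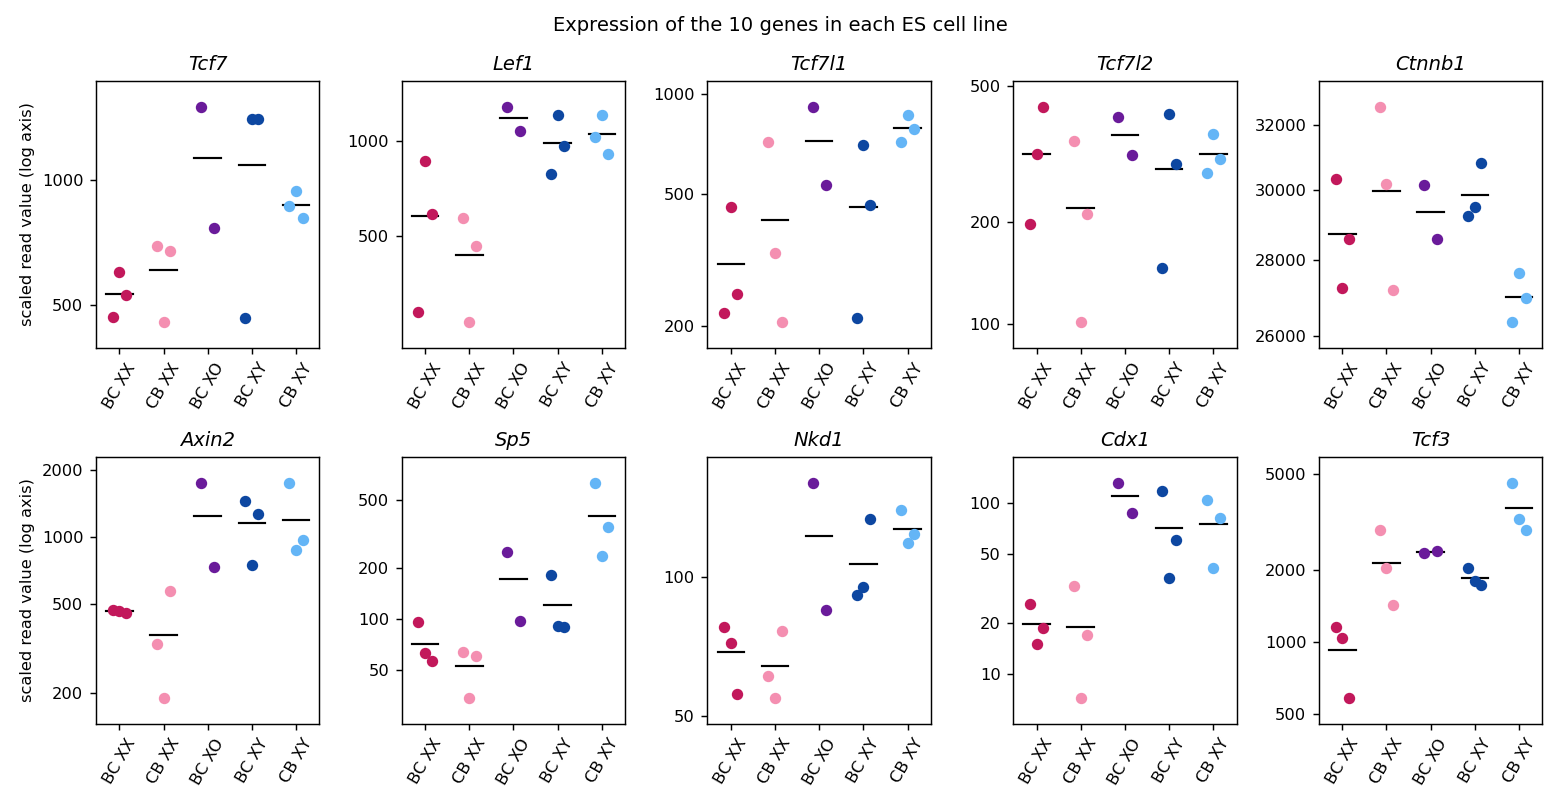
Scaled read value (log axis) of each of the 10 genes in each line, by group; points are lines and bars are group means, and each panel has its own range. For *Axin2*, *Nkd1* and *Cdx1* all 6 XX lines sit below all 6 XY lines, and *Ctnnb1* stays between 26351 and 32564 in all 14 lines.

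Beta-catenin, encoded by *Ctnnb1* on chromosome 9 (chr9:120838334-120869625 in mm9), was the most even of the genes. The values were 30337, 27261 and 28582 in the BC XX lines, 29249, 29505 and 30815 in the BC XY lines, and 30153 and 28583 in the BC XO lines. In the CB cross they were 32564, 30193 and 27183 in the XX lines and 26351, 27655 and 26994 in the XY lines. The XX and XY lines overlapped in both crosses, and the difference XX minus XY was 0.05 on the log2(value + 5) scale (SE 0.09, 95% interval -0.14 to 0.23). The mRNA level does not measure the protein, whose stability is what Wnt signalling alters.

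*Axin2* (chr11:108781663-108812097) was lower in every XX line than in any XY line. In the BC cross the XX lines had 471, 467 and 459 and the XY lines 1455, 751 and 1265. In the CB cross the XX lines had 331, 190 and 571 and the XY lines 1753, 872 and 968. The BC XX lines were nearly equal to each other, and the CB XX lines spread from 190 to 571. Mean values were 415 ± 134 in XX lines and 1177 ± 383 in XY lines (SD, n = 6 each), a ratio of 2.84. On the log2(value + 5) scale XX minus XY was -1.51 (SE 0.27), with -1.25 (SE 0.40) among BC lines and -1.77 (SE 0.40) in the CB cross.

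*Cdx1*, a caudal-type homeobox gene on chromosome 18 (chr18:61178516-61195853) that Wnt and retinoic acid signals turn on in the early embryo, also did not overlap between XX and XY lines. The XX lines had 25.6, 15.1 and 18.7 among BC lines and 32.7, 7.31 and 16.9 in the CB cross. The XY lines had 116, 36.6 and 60.2 among BC lines and 103, 41.8 and 81.8 in the CB cross. The gap was small, from 32.7 in CB XX 1 to 36.6 in BC XY 2, and the ratio of the means was 3.78. XX minus XY was -1.66 (SE 0.32), and the values of both crosses were close (-1.50 in BC, -1.81 in CB, SE 0.46 each).

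*Nkd1* (chr8:91045243-91118786), which encodes Naked cuticle 1, an inhibitor that binds Dishevelled and is itself a Wnt target, differed by less but as evenly. The values were 78.0, 72.1 and 56.0 in BC XX, 91.2, 94.8 and 133 in BC XY, 61.1, 54.8 and 76.4 in CB XX and 139, 118 and 123 in CB XY lines. Every XX line was below every XY line, with a ratio of the means of 1.76. XX minus XY was -0.76 (SE 0.18), -0.59 among BC lines and -0.94 in the CB cross (SE 0.27 each). Genes of chromosome 8 had a median deviation of 0.27 in CB XX 3 and 0.32 in CB XY 1, which were the highest CB XX and the highest CB XY line for *Nkd1*, and with each line centred by chromosome the difference was -0.73. The share of all tested genes with all 6 XX lines below all 6 XY lines was 1.23%, and *Axin2*, *Cdx1* and *Nkd1* were 3 of the 10.

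*Sp5* (chr2:70312980-70315786) had a wider gap between XX and XY lines in the CB than in the BC cross. In the BC cross the XX lines had 95.2, 62.7 and 56.0 and the XY lines 181, 90.6 and 89.0, with an overlap of BC XX 1 and 2 XY lines. In the CB cross the XX lines had 63.96, 34.1 and 60.4 and the XY lines 638, 236 and 347, with no overlap and a ratio of the means of 7.70. The differences were -0.67 (SE 0.43) among BC lines and -2.76 (SE 0.43) in the CB cross. The test of the difference between the crosses gave 2.08 (SE 0.61), with an adjusted p of 0.291 (limma, Benjamini-Hochberg), so that an unequal effect was not shown, although its unadjusted 95% interval ran from 0.79 to 3.38. No member passed the threshold for this interaction, which 0.0738% of all genes did.

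*Lef1* (chr3:130813389-130927274), which encodes the activating member of the TCF/LEF family that is itself a Wnt target in many cells, was the TCF/LEF gene with the largest difference. The XX lines had 287, 862 and 587 among BC lines and 570, 267 and 463 in the CB cross. The XY lines had 783, 1205 and 960 among BC lines and 1030, 1206 and 905 in the CB cross. Only BC XX 2 reached into the XY range, above BC XY 1, and the ratio of the means was 2.01. XX minus XY was -1.10 (SE 0.25), with -0.87 among BC lines and -1.32 in the CB cross (SE 0.35 each).

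*Tcf7* (chr11:52065873-52096681), which encodes TCF1, was less even. The XX lines had 467, 599 and 529 among BC lines and 692, 454 and 675 in the CB cross. The BC XY lines had 465, 1397 and 1400, so that BC XY 1 lay below all 3 BC XX lines, and the CB XY lines had 864, 941 and 810. XX minus XY was -0.70 (SE 0.24), with -0.87 among BC lines and -0.54 in the CB cross (SE 0.36 each). *Tcf7l2* (chr19:55816300-56008144), which encodes TCF4 and is best known from the intestine, overlapped widely, with 101 to 435 in XX lines and 146 to 415 in XY lines. Its difference was -0.24 (SE 0.33, interval -0.94 to 0.46), and it was positive in the BC cross (0.19) and negative in the CB cross (-0.67).

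**Figure D2:**
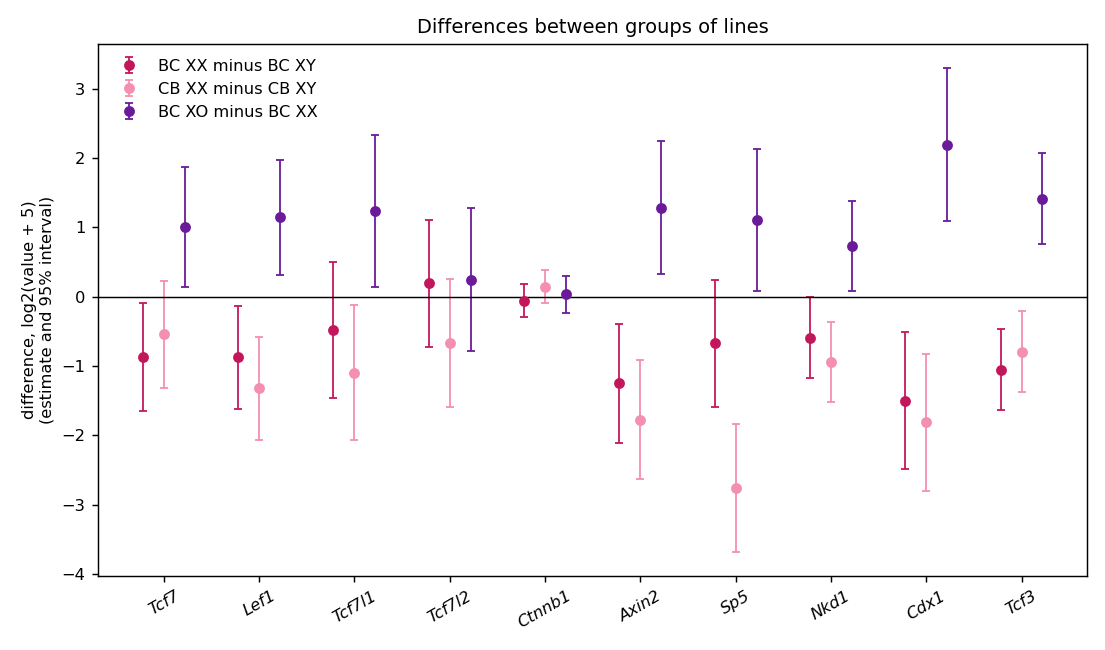
Differences in log2(value + 5) between groups of lines, with 95% intervals from the model of 5 groups, for the 10 genes. The XX minus XY values are negative for 9 genes in each cross and the BC XO minus BC XX values are positive for all 10, from 0.03 (*Ctnnb1*) to 2.19 (*Cdx1*).

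The names *Tcf3* and *Tcf7l1* have been mixed in work on ES cells, because the protein of *Tcf7l1* was long called Tcf3. Tcf-3 stands among the RefSeq synonyms of *Tcf7l1*, the gene on chromosome 6 (chr6:72576372-72739248, minus strand). The row named *Tcf3* is the E2A gene on chromosome 10 (chr10:79872259-79896392, minus strand). Both rows are in the table and are described in turn.

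*Tcf3*, the E protein gene, had 1156, 1035 and 585 in BC XX lines and 2028, 1791 and 1731 in BC XY lines, with no overlap. It had 2928, 2040 and 1433 in CB XX lines and 4627, 3269 and 2942 in CB XY lines, again with no overlap, although CB XX 1 came close to CB XY 3. Over both crosses the XX lines (585 to 2928) and the XY lines (1731 to 4627) overlapped, since CB lines lay above BC lines of the same sex in every case. XX minus XY was -1.05 among BC lines and -0.79 in the CB cross (SE 0.27 each), and -0.92 (SE 0.35) over the 12 lines. The fit over the 12 lines had no term for the cross, so that the difference between the crosses enters its SE.

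*Tcf7l1*, the TCF/LEF repressor, had 220, 458 and 250 in BC XX lines and 212, 702 and 464 in BC XY lines, so that the lowest of these 6 lines was an XY line. It had 716, 333 and 206 in CB XX lines and 717, 867 and 788 in CB XY lines, where CB XX 1 and CB XY 1 were nearly equal and the groups just did not overlap. The differences were -0.48 among BC lines and -1.09 in the CB cross (SE 0.46 each), and -0.79 (SE 0.37) over the 12 lines. Genes of chromosome 6 had a median deviation of 0.22 in CB XX 1, 0.29 in CB XY 2 and 0.25 in CB XY 3, and between -0.15 and 0.12 in the other 11 lines. With each line centred by chromosome the *Tcf7l1* difference was -0.78 over the 12 lines, -0.57 among BC lines and -0.98 in the CB cross.

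Of this pair, *Tcf3*, the E2A gene, was the one with XX lines below XY lines in both crosses. *Tcf7l1* had the same direction, but its lines overlapped in the BC cross. The 5 genes repressed by *Tcf7l1* in ES cells that were examined did not pass the threshold in XX against XY. Their differences ran from -0.37 for *Esrrb* (SE 0.25, adjusted p = 0.385) to 0.05, with a median of 0.01, and *Nanog* was at 0.03 (SE 0.22, adjusted p = 0.944). Among the other E protein genes the difference was -0.02 (SE 0.24, adjusted p = 0.974) for *Tcf4* and 0.05 (SE 0.17, adjusted p = 0.888) for *Tcf12*, and none of the 6 E protein and Id genes tested passed the threshold (limma). *Tcf4* here is the E protein gene E2-2 and not the TCF4 of *Tcf7l2*.

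The order of the lines for *Tcf3* was close to the order of their GC tilt. BC XX 3 was lowest in both (585 and -1.34), and CB XY 1 was highest in both (4627 and 0.95), followed by CB XY 2 in both. The 5 genes whose pattern over the 14 lines was most like that of *Tcf3*, by Pearson's r of log2(value + 5) among 16261 genes, were *Med16* (0.977), *Kif7*, *Bag6*, *Fance* and *Hspbp1* (0.973), whereas *Tcf7l1* came at rank 2488 (0.668). For *Axin2* the 5 genes were *Ntn1* (0.935), *Greb1* (0.925), *Pbx2* (0.908), *Vstm2b* (0.907) and *Crb2* (0.906), with *Nkd1* at rank 10 (0.898), *Cdx1* at rank 13 (0.891), *Sp5* at rank 108 (0.817) and *Tcf3* at rank 2998 (0.414). The 14 lines of such a correlation share their culture and their GC tilt, and no p is given.

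**Figure D3:**
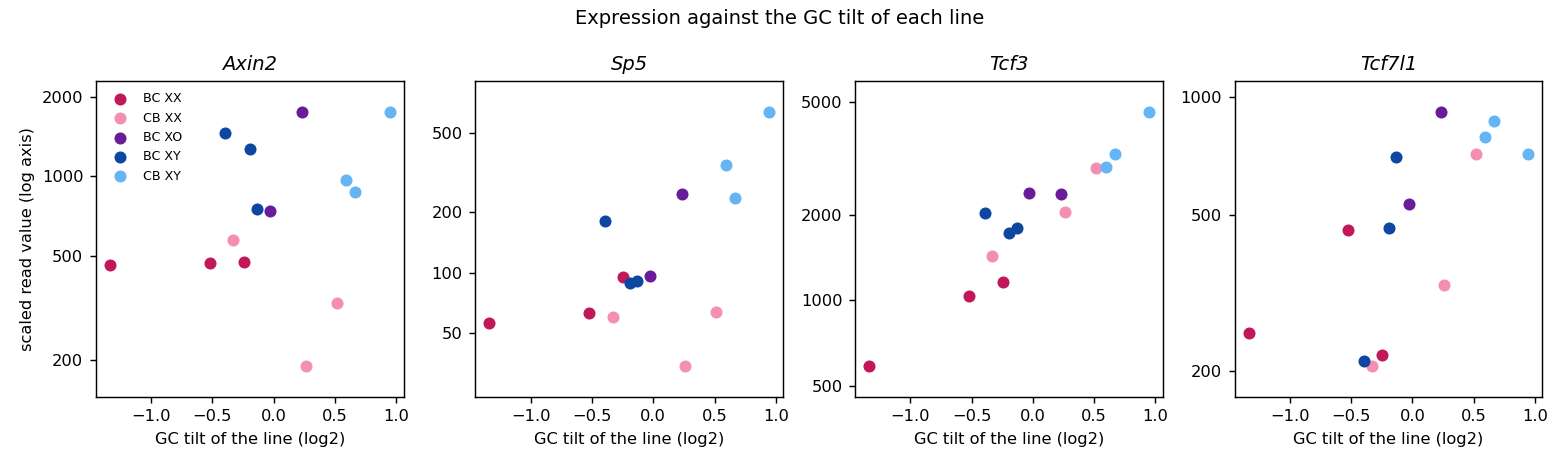
Scaled read value (log axis) of *Axin2*, *Sp5*, *Tcf3* and *Tcf7l1* in each line against the GC tilt of the line (log2); points are lines, coloured by group. *Tcf3* runs from 585 in BC XX 3, the line of lowest tilt, to 4627 in CB XY 1, the line of highest tilt. For *Axin2* all 6 XX lines lie below all 6 XY lines in these values, which are not corrected for GC content. Whether the tilt bears on either gene was not tested.

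With the trend on GC content removed from each line, a correction that was added after the data had been seen, *Tcf3* differed by -0.53 (SE 0.15) over the 12 lines, -0.70 (SE 0.16) among BC lines and -0.36 (SE 0.16) in the CB cross. For *Tcf3* the differences and their SEs were both smaller than without the correction. In the corrected log2 values the BC XX lines (10.2 to 10.4) stayed below the BC XY lines (10.9 to 11.3), and CB XX 1 (11.1) came to lie above CB XY 3 (11.0). *Lef1* and *Nkd1* moved little, to -1.08 (SE 0.25) and -0.67 (SE 0.16). *Axin2* moved to -1.22 (SE 0.34), *Cdx1* to -1.25 (SE 0.40), *Sp5* to -1.31 (SE 0.38) and *Tcf7l1* to -0.54 (SE 0.31). After the correction the *Axin2* values overlapped, also within the BC cross. BC XX 3 (9.646) lay above BC XY 2 (9.620), CB XY 3 (9.631) and CB XY 2 (9.435). The corrected *Axin2* difference was -0.96 among BC lines and -1.49 in the CB cross (SE 0.43 each). The *Cdx1* values overlapped as well, since BC XX 3 (5.63) lay above BC XY 2 (5.55) and CB XY 2 (5.00). For *Nkd1* all XX lines (5.91 to 6.39) lay below all XY lines (6.61 to 7.11).

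Without it, an FDR of 0.05 in XX against XY was passed by 5 of the 10 (*Axin2*, *Cdx1*, *Sp5*, *Lef1* and *Nkd1*), beside 5.21% of all 15311 genes tested. With it, 4 passed (*Axin2*, *Lef1*, *Nkd1* and *Tcf3*), beside 6.16%. The median difference of the 10 genes was -0.85, and that of all genes tested was -0.03. In the BC cross 1 passed (*Tcf3*), beside 5.7% of all genes, and in the CB cross 3 passed (*Sp5*, *Axin2* and *Cdx1*), beside 3.57%. These counts describe how the genes were chosen and carry no further weight. They also changed as lines were left out, as did the share of all genes that passed. The count over both crosses was 2 without CB XY 1 (2.94% of all genes) or CB XY 2 (2.88%), and 3 without CB XX 2 (3.25%). Without CB XY 2 and CB XY 3 together, where *Uty* was as low as in XX lines, it was 2 (*Axin2* at -1.66 and *Cdx1* at -1.75), beside 2.01%. The BC count of 1 was 0 without BC XX 2, BC XX 3, BC XY 2, BC XY 3, CB XX 2 or either XO line, which all enter the shared estimate of spread, and 2 without CB XX 1. In the CB cross it was 1 without CB XX 2, CB XY 1 or CB XY 3, beside 0.907%, 0.895% and 2.32% of all genes. The share of all genes in the BC cross was 2.12% without BC XX 2, 1.41% without BC XX 3, 1.43% without BC XY 2 and 3.0% without BC XY 3. It was 5.44% without CB XX 2 and 7.05% without CB XX 1.

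Fibroblast markers were also unequal between the groups. The summed value of the 25 fibroblast markers was 120603 to 258005 in the BC XX lines, and 10151 to 43138 in the other 11 lines, where only 1 marker (*Fap*) was at 0, in CB XX 1. All 24 of those tested were positive in XX minus XY. In the BC cross all 25 were positive and 17 passed the threshold (median 2.40), and in the CB cross 21 of 25 were positive and none passed (median 0.32). In bulk RNA, fewer cells of a type and less RNA per cell cannot be told apart. With the fibroblast level as a covariate, XX minus XY over the 12 lines was -1.79 for *Axin2*, -2.09 for *Sp5*, -1.77 for *Cdx1*, -1.16 for *Lef1* and -0.76 for *Nkd1*, none of which was nearer to 0 by more than rounding, and 3 of the 10 passed the threshold (*Axin2*, *Sp5* and *Cdx1*), beside 3.42% of all genes. For *Tcf3* it was -0.35 and for *Tcf7l1* -0.40, closer to 0 than without it. In this fit, too, every BC XX line has a higher fibroblast level than any other line. The covariate and the BC XX group therefore cannot be fully told apart. Within the BC cross the covariate turned the direction of *Tcf7* (0.10) and *Tcf7l1* (0.85), and *Tcf3* was at -0.47. Within the CB cross the fibroblast level was 8.14 to 9.64 in XX lines and 7.83 to 9.40 in XY lines. In that cross *Axin2*, *Nkd1*, *Cdx1*, *Sp5*, *Lef1*, *Tcf7*, *Tcf7l1* and *Tcf3* had all XX lines below all XY lines, while *Tcf7l2* and *Ctnnb1* did not. The share of all genes that separated in this way in the CB cross was not computed, so that these genes cannot be set beside it. In the GC-corrected log2 values CB XX 1 lay above CB XY 1 for *Tcf7l1* (9.29 and 9.11). It lay above CB XY 3 for *Tcf3* (11.15 and 11.03). Of the genes that separated, the rest stayed apart. Whether the fibroblast level bears on these differences was not tested.

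XO cells have a single X chromosome, as XY cells do, but no Y. The XO lines were compared with the BC XX lines, which also enter the XX against XY comparison known when the genes were chosen, so that the p-values are not independent of that choice. *Axin2* had 1759 and 738 in the XO lines against 459 to 471 in BC XX lines. *Cdx1* had 131 and 86.8 against 15.1 to 25.6, *Tcf3* had 2362 and 2392 against 585 to 1156, and *Lef1* had 1278 and 1071 against 287 to 862. For these 4 genes both XO lines lay above all 3 BC XX lines, as they did for *Sp5* (247 and 96.7), *Nkd1* (160 and 84.7), *Tcf7* (1498 and 765) and *Tcf7l1* (917 and 534), which makes 8 of 10 beside 23.5% of all genes. *Sp5* in BC XO 2 was barely above BC XX 1 (95.2). In the GC-corrected log2 values BC XO 2 lay below BC XX 3 for *Axin2* (9.55 and 9.65) and *Sp5* (6.73 and 6.99). It lay below BC XX 2 for *Tcf7l1* (9.078 and 9.095). These genes then overlapped between XO and BC XX lines, and the rest of those named stayed apart.

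Past the threshold were *Tcf3*, higher in XO by 1.41 (SE 0.31, adjusted p = 0.0252, limma), and *Cdx1*, higher by 2.19 (SE 0.51, adjusted p = 0.0339, limma), which is 2 of 10 beside 4.66% of all genes. *Lef1* was at 1.15 (SE 0.39, adjusted p = 0.0943), *Axin2* at 1.28 (SE 0.45, adjusted p = 0.104), *Tcf7l1* at 1.24 (SE 0.51, adjusted p = 0.159) and *Sp5* at 1.10 (SE 0.48, adjusted p = 0.180), which did not pass. The median over the 10 genes was 1.12, and over all genes 0.02. With the GC correction *Tcf3* was at 0.82 (SE 0.18, adjusted p = 0.0291) and *Cdx1* at 1.58 (SE 0.53, adjusted p = 0.108), so that 1 of 10 passed beside 3.6% of all genes. *Lef1* was then at 1.12 (adjusted p = 0.108, limma) and *Axin2* at 0.82 (adjusted p = 0.350). *Tcf7l1* was at 0.83 (adjusted p = 0.336) and *Sp5* at 0.49 (adjusted p = 0.602). With the fibroblast level as a covariate *Tcf3* and *Cdx1* were at 0.98 (adjusted p = 0.371) and 2.30 (adjusted p = 0.241), in a fit where all 3 BC XX lines have a higher fibroblast level than any other line. Neither gene passed without BC XO 1, without BC XO 2 or without BC XX 3, and *Cdx1* did not pass without BC XX 2 (adjusted p = 0.0814). The fibroblast markers were lower in XO than in BC XX lines in 25 of 25 cases (median -1.83), of which 11 passed.

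Against BC XY lines, none of the 10 genes in the XO lines passed the threshold (limma), which 0.00615% of all genes (1 of 16261) did, and 242 genes had an unadjusted p under 0.05. The differences XO minus XY ran from -0.02 for *Ctnnb1* (SE 0.13, interval -0.29 to 0.25) to 0.76 for *Tcf7l1* (SE 0.51, interval -0.33 to 1.86), with all adjusted p at 0.999. *Axin2* was at 0.03 (interval -0.93 to 0.99), *Cdx1* at 0.69 (interval -0.41 to 1.80) and *Tcf3* at 0.36 (interval -0.29 to 1.02). The intervals are wide, with only 2 XO lines, and do not show that XO and XY lines were alike. For *Tcf3* both XO lines (2362 and 2392) lay above the highest BC XY line (2028).

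The cross was compared between the XY lines, which had C57BL/6J or CAST/EiJ mothers. None of the 10 genes passed the threshold in BC XY minus CB XY, beside 0.64% of all genes. *Sp5* was at -1.67 (SE 0.43, adjusted p = 0.0761, limma) and *Tcf3* at -0.94 (SE 0.27, adjusted p = 0.101), and for both all 3 BC XY lines lay below all 3 CB XY lines. *Tcf7l1* was at -0.93 (SE 0.46, adjusted p = 0.292), also with no overlap. With the GC correction these differences were -0.84, -0.16 and -0.55. *Ctnnb1* lay the other way, with BC XY lines at 29249 to 30815 and CB XY lines at 26351 to 27655. The share of all genes that separated in either direction was not computed. *Axin2* was at -0.03 (SE 0.40, adjusted p = 0.976), with BC XY lines at 751 to 1455 and CB XY lines at 872 to 1753.

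The wider pathway was read from lists of ligands, receptors, inhibitors, transducers, cofactors and targets. In XX against XY, 95 of 103 other Wnt genes were tested and 10 passed the threshold, beside 5.21% of all genes, 4 higher and 6 lower in XX lines. Their median difference was -0.18 and that of all genes -0.03. The count of 10 changed with the lines used, as did the share of all genes that passed. It was 16 without CB XX 1 (11.3% of all genes) and 3 without CB XY 1 (2.94%). The count was between 4 and 6 without any single one of BC XX 1, BC XX 2, BC XX 3, BC XY 2, CB XX 2, CB XX 3, CB XY 2 and CB XY 3. The share of all genes in these fits was 2.66% to 4.35%. With the GC correction 9 passed, beside 6.16%.

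**Figure D4:**
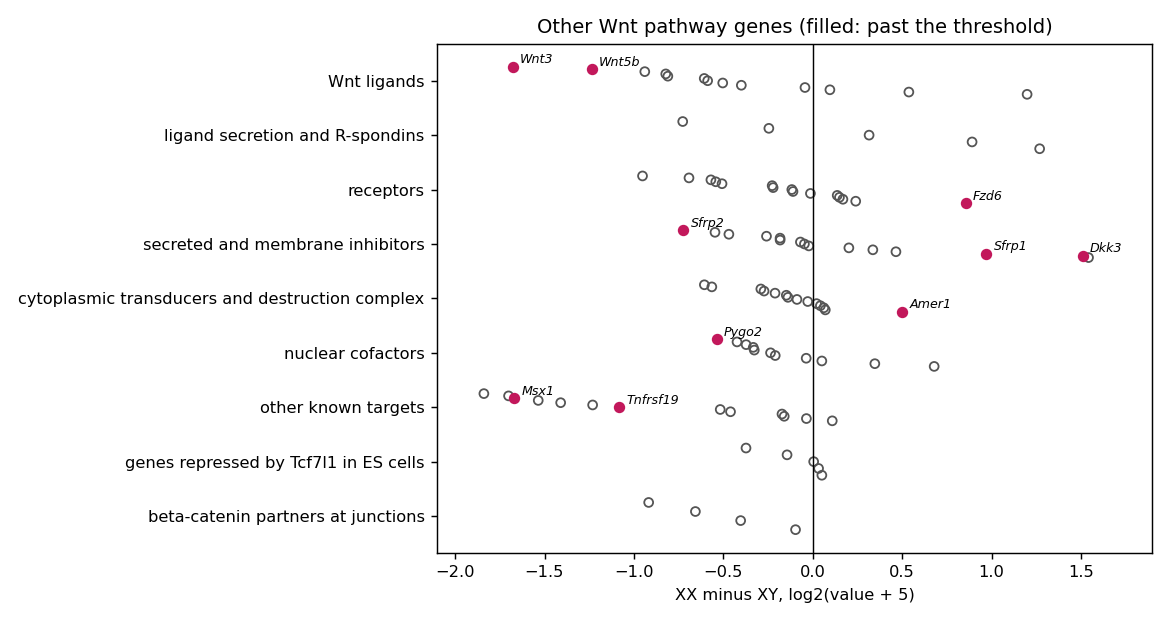
XX minus XY difference in log2(value + 5) for each other Wnt gene tested, by role; filled points passed an FDR of 0.05 (limma) and are named. Of 13 other known targets 12 lie below 0, and the 4 genes above 0 that passed are *Fzd6*, *Sfrp1*, *Dkk3* and *Amer1*.

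Among the 13 ligands tested, 2 passed the threshold, beside 5.21% of all genes. Both were lower in XX lines, and 10 of the 13 differences were negative. *Wnt3*, a ligand needed for the primitive streak, was lower in XX lines, with a difference of -1.68 (SE 0.43, adjusted p = 0.0361, limma). The values were 136, 94.0 and 81.5 in BC XX, 421, 187 and 161 in BC XY, 21.3, 36.6 and 68.4 in CB XX and 355, 90.9 and 215 in CB XY lines, so that CB XY 2 lay among the BC XX lines. In the 2 XO lines *Wnt3* had 480 and 299 (XO minus BC XX 1.85, SE 0.55, adjusted p = 0.0673). *Wnt5b*, a ligand mostly studied outside the beta-catenin branch, was at -1.24 (SE 0.33, adjusted p = 0.0442), and at -1.04 (adjusted p = 0.0819) with the GC correction. None of 5 genes of ligand secretion and R-spondins passed the threshold.

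Among 13 other known targets 2 passed the threshold, beside 5.21% of all genes. Both were lower in XX lines, and 12 of the 13 differences were negative. *Tnfrsf19*, a receptor of the tumour necrosis factor family also called Troy, had 592, 510 and 573 in BC XX, 1363, 820 and 910 in BC XY, 298, 290 and 331 in CB XX and 1034, 516 and 865 in CB XY lines. The difference was -1.08 (SE 0.25, adjusted p = 0.0224), and all XX lines were below all XY lines within each cross, while CB XY 2 lay within the range of the BC XX lines. *Msx1*, a homeobox gene, was at -1.67 (SE 0.42, adjusted p = 0.0333), with 6.94 to 15.8 in XX lines and 22.7 to 199 in XY lines. The median of the 13 was -1.08. In the CB cross 12 of the 13 were negative and 5 passed, beside 3.57% of all genes, and in the BC cross 10 were negative and none passed, beside 5.7%.

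The receptors gave 1 of 15, *Fzd6*, a Frizzled receptor that acts mostly in planar polarity, which was higher by 0.86 (SE 0.19, adjusted p = 0.0192). The secreted inhibitors gave 3 of 15, in both directions. These counts stand beside 5.21% of all genes, and 1 call in a list of 15 is near that share. *Sfrp1*, a decoy receptor that binds Wnt ligands, was higher in XX lines by 0.97 (SE 0.15, adjusted p = 0.00277), with 2318 to 4234 in XX and 1403 to 1843 in XY lines and no overlap. *Dkk3*, a divergent member of the Dickkopf family, was higher by 1.51 (SE 0.41, adjusted p = 0.0455) and *Sfrp2*, a relative of *Sfrp1*, was lower, with a difference of -0.72 (SE 0.17, adjusted p = 0.0233). *Dkk3* had 619 to 1928 in the BC XX lines, 229 to 654 in the CB XX lines and 142 to 356 in the XY lines. With the fibroblast level as a covariate its difference was 0.47 (adjusted p = 0.407, limma), that of *Fzd6* 0.63 (adjusted p = 0.144) and that of *Sfrp1* 1.03 (adjusted p = 0.0117).

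Of 14 transducers and destruction complex genes 1 passed, beside 5.21% of all genes. It was *Amer1*, an X-linked scaffold that recruits Axin to the membrane, higher in XX lines by 0.50 (SE 0.13, adjusted p = 0.0428, limma). Of 11 nuclear cofactors 1 passed, and 1 call in a list of 11 or 14 genes is near that share. The cofactor was *Pygo2*, which links beta-catenin complexes to chromatin, at -0.54 (SE 0.13, adjusted p = 0.0303, limma). It had 1016 to 1637 in XX and 1535 to 2070 in XY lines. *Pygo2* was also higher in XO than in BC XX lines by 0.72 (SE 0.16, adjusted p = 0.0291, limma). It was among 3 of 99 other Wnt genes that passed there, beside 4.66% of all genes. The others were *Dvl2*, a Dishevelled gene, at 1.02 (SE 0.27, adjusted p = 0.0489), and *Dkk3* at -2.09 (SE 0.50, adjusted p = 0.0364). The 4 partners of beta-catenin at cell junctions were all negative in XX minus XY and none passed, with *Cdh1* (E-cadherin) at -0.66 (SE 0.18, adjusted p = 0.0553) and *Jup* (plakoglobin) at -0.92 (SE 0.30, adjusted p = 0.0900).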

How the data were processed

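Stranded libraries of total RNA from 14 ES cell lines were read from a single end. According to the methods and the submitters' processing notes, the authors aligned reads to mm9 with TopHat2 and compared expression with the Cufflinks suite. The deposited table holds 1 signal value for each gene and line, which the authors had put on a common scale by steps not given in the sources used here. Here log2(value + 5) was fitted with limma 3.58.1 (trended variance) in R 4.3.3, with Benjamini-Hochberg adjustment over all genes. XX against XY used 12 lines and genes with a value of 10 or more in 6, and the other comparisons used a model of 5 groups on 14 lines and genes with 10 or more in 2. A fold on this scale understates changes of low genes. Left out were 15 genes listed at 0 in a whole group and at 100 or more elsewhere, none of them a member. GC content was the median over GENCODE vM1 coding transcripts, and its trend was removed per line by lowess (span 0.3), a step added after the data had been seen. The fits were tested on simulated data. Exon lengths and positions came from the mm9 annotation. Libraries were prepared in batches to which the text assigns no lines, so that batches were not modelled.

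The 10 genes, the gene lists and the tests were chosen with earlier results of these data known. Named besides the 10 were, per role, at most 4 genes past an FDR of 0.05 with the largest difference, the junction genes, those repressed by *Tcf7l1*, *Tcf4* and *Tcf12*, the 5 genes most like *Axin2* and *Tcf3*, *Uty*, and, after the values were seen, the genes past the threshold in XO against XX. The values are not whole counts, and tests for read counts were not run.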

Additional observations from a re-analysis of the deposited data

How the results depend on the processing

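Of 1471 alternative values of single genes 1448 kept their sign and 23 turned it. Outside the members' XX minus XY values, over both crosses or within a cross, 90 lost the threshold and 3 gained it. Crossings among those member values are not in these counts. With the GC correction, for example, *Tcf3* came to pass in XX against XY while *Cdx1* and *Sp5* no longer passed. In XX against XY *Tcf7l2* was 0.0053 without CB XX 2, and in BC XX against BC XY it was -0.07 without BC XX 3 and -0.22 without BC XY 1, while *Ctnnb1* there was 0.13 and *Tcf7* and *Tcf7l1* were 0.10 and 0.85 with the fibroblast level as a covariate. *Tcf12* in XX against XY was -0.25 with the fibroblast level as a covariate, -0.068 without CB XY 2 and CB XY 3 and -0.053 with the GC correction, and ranged from -0.077 to 0.096 as each line was left out. *Tcf4* ranged from -0.20 to 0.12. In BC XO against BC XX, *Tcf7l2* was -0.46 with the fibroblast covariate and ranged from -0.054 to 0.51, and *Ctnnb1* was -0.11 with that covariate, -0.021 with the GC correction and ranged from -0.0058 to 0.073. The cause was not tested in any of these cases. The number of the 10 genes past the threshold with the fibroblast covariate was 3 in XX against XY (3.42% of all genes), 0 in BC XX against BC XY (0.0492%), 0 in BC XO against BC XX (0.24%) and 2 in BC XY against CB XY (6.27%, against 0.64% without it), and 17 of the other Wnt genes passed. Without CB XY 2 and CB XY 3, where the single CB XY line left is assumed to vary like the other groups, it was 2 in XX against XY (2.01%), 0 among BC lines (4.42%) and 1 in the CB cross (0.815%), and 4 of the other Wnt genes passed. With lines centred by chromosome it was 0 among BC lines (4.71%) and 1 in the CB cross (1.59%), and 5 of the other Wnt genes passed. With no filter on low values it was 0 in BC XX against BC XY (3.35% of all genes) and 1 in BC XO against BC XX (1.93%). With the GC correction it was 1 in the latter (3.6%). As each line was left out, the number ranged from 2 to 6 in XX against XY (2.66% to 11.3% of all genes) and from 0 to 2 in the BC cross (1.41% to 7.05%). It ranged from 1 to 3 in the CB cross (0.895% to 4.03%). In BC XO against BC XX it ranged from 0 to 3 (0.432% to 6.74% with both XO lines kept). It stayed at 0 in the other comparisons (at most 2.6%). For the other Wnt genes in XX against XY it ranged from 3 to 16. Deviations of same-numbered BC XX and BC XY lines correlated at -0.16, 0.27 and -0.04, and those of differently numbered lines at -0.18 to 0.14. These values cannot exclude that equal numbers share a batch, since deviations within a group of 3 lines depend on each other. The CB lines were not examined in this way. The replicate block gave 0 in BC XO against BC XX, beside 0.32% of all genes (*Tcf3* 1.24, adjusted p = 0.0736, and *Cdx1* 2.16, adjusted p = 0.0674, limma). It gave 7 in XX against XY (10.4% of all genes) and 14 for the other Wnt genes. The block was set within BC lines only, with a term for the cross in XX against XY. The cross as a covariate alone gave 6 and 14 (11.1% of all genes). The planned tests on whole reads were not run, since the values are not whole counts. Of the members' values the lowest, *Cdx1* at 7.31 in CB XX 2, was above the value of 3 steps (3.66), and groups of 2 or 3 lines limit every comparison.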
